A study of Mus musculus with 6 samples.

Results

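Integrins are the transmembrane receptors through which cells hold on to the extracellular matrix and, in leukocytes, to other cells, and laminins are the trimeric glycoproteins of the basement membrane that many epithelial integrins bind. The genes described here are those of the integrin alpha and beta subunits and of the laminin alpha, beta and gamma chains. They were taken by symbol from array rows annotated with exactly 1 gene symbol, with the brightest row (transcript cluster) per gene over the 6 arrays. This left 36 genes, 26 integrin and 10 laminin, of 30140 genes tested. Each had 1 cluster. Itga1 shared its only cluster with the gene Pelo, and was not analysed here.

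Tumor cells were sorted from mouse MCRedAL prostate tumor allografts of male mice as mCherry positive and negative for CD45, CD11b and the macrophage antigen encoded by Adgre1, with 1 array per sample. MCRedAL is a prostate cancer line that carries the red fluorescent protein mCherry, so all 6 tumors derive from 1 line. There were 3 tumors of mice treated with degarelix, a drug that blocks the pituitary receptor for gonadotropin-releasing hormone and so lowers testosterone (titles marked 7dPC, a tag the labels do not explain), and 3 untreated tumors (titles marked Intact). Mice were assigned at random, degarelix was injected subcutaneously once tumors had reached a set size, and no other allele or agent is named for either group. The sources used here give neither strain nor age.

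Every integrin is a pair of 1 alpha and 1 beta subunit. The beta1 subunit joins many alpha subunits, alpha6beta4 anchors epithelial cells to laminin in hemidesmosomes, alpha5beta1 is the classical fibronectin receptor, the alphav integrins bind vitronectin, fibronectin and latent TGF-beta, and the beta2 integrins belong to leukocytes. In the normal prostate, basal cells rest on a laminin-rich basement membrane through alpha3beta1, alpha6beta1 and alpha6beta4. For the description the integrins were grouped as epithelial (5 genes), matrix (11 genes, Itgb1 among them although its protein also pairs with epithelial and leukocyte alpha subunits) and leukocyte and platelet (10 genes).

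Values are log2 expression as deposited, and a change is degarelix minus untreated on that scale. A gene was called at an adjusted p under 0.05 in limma, adjusted over all 30140 genes. The array carries 23 background probe sets, whose brightest value was 6.93, and a level below that is described as within the background range. Between 30.3% and 35.1% of all genes per array lay above the brightest background value of that array. Array values of different genes rest on different probes and are not set against each other. With 3 arrays per group the precision was limited. The sort label was compared with marker genes. Krt8, a keratin of luminal epithelium, averaged 11.92 ± 0.14 in degarelix and 11.55 ± 0.33 in untreated tumors (SD, n = 3 each), and the tight junction gene Cldn3 averaged 10.31 ± 0.04 and 10.62 ± 0.12 (called lower). The epithelial adhesion genes Epcam (3.90 ± 0.07 and 3.85 ± 0.05) and Cdh1 (4.98 ± 0.15 and 4.85 ± 0.06) lay within the background range in both groups. So did Krt18 (5.67 ± 0.13 and 5.50 ± 0.14) and Cldn7 (5.76 ± 0.16 and 5.60 ± 0.08), while Cldn4 averaged 10.03 ± 0.05 and 9.90 ± 0.70. With 4 of 7 epithelial markers within the background range, the epithelial label rested on part of its markers. The prostate homeobox gene Hoxb13 averaged 6.96 ± 0.09 and 7.15 ± 0.11, and the secretory gene Pbsn lay within the background range in both groups. Ptprc, which encodes CD45, lay between 3.68 and 4.47 on all 6 arrays, within the background range.

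After degarelix 3 integrin genes rose, all of them alpha subunits: Itga3 by 1.05 (2.07-fold), Itga5 by 0.96 (1.94-fold) and Itgav by 0.36 (1.28-fold). None fell, and none of the 10 laminin genes passed the test in either direction. Across all genes 4.19% were called higher and 7.51% lower. Of 26 integrins 23 did not pass, and the median change of the 26 was 0.06, against 0.04 over all genes tested. The 3 called genes belong to the epithelial class (Itga3, 1 of 5) and the matrix class (Itga5 and Itgav, 2 of 11), whereas 0 of 10 leukocyte and platelet integrins were called. No test was made of a difference between the classes. Their median changes were 0.09, 0.14 and 0.01 for the epithelial, matrix, and leukocyte and platelet class, and 0.15 for the laminins. The groups did not overlap for 9 of the 36 genes on the higher side and 1, Itgae, on the lower side, where the shares over all genes were 14.8% and 16.4%.

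**Figure D1:**
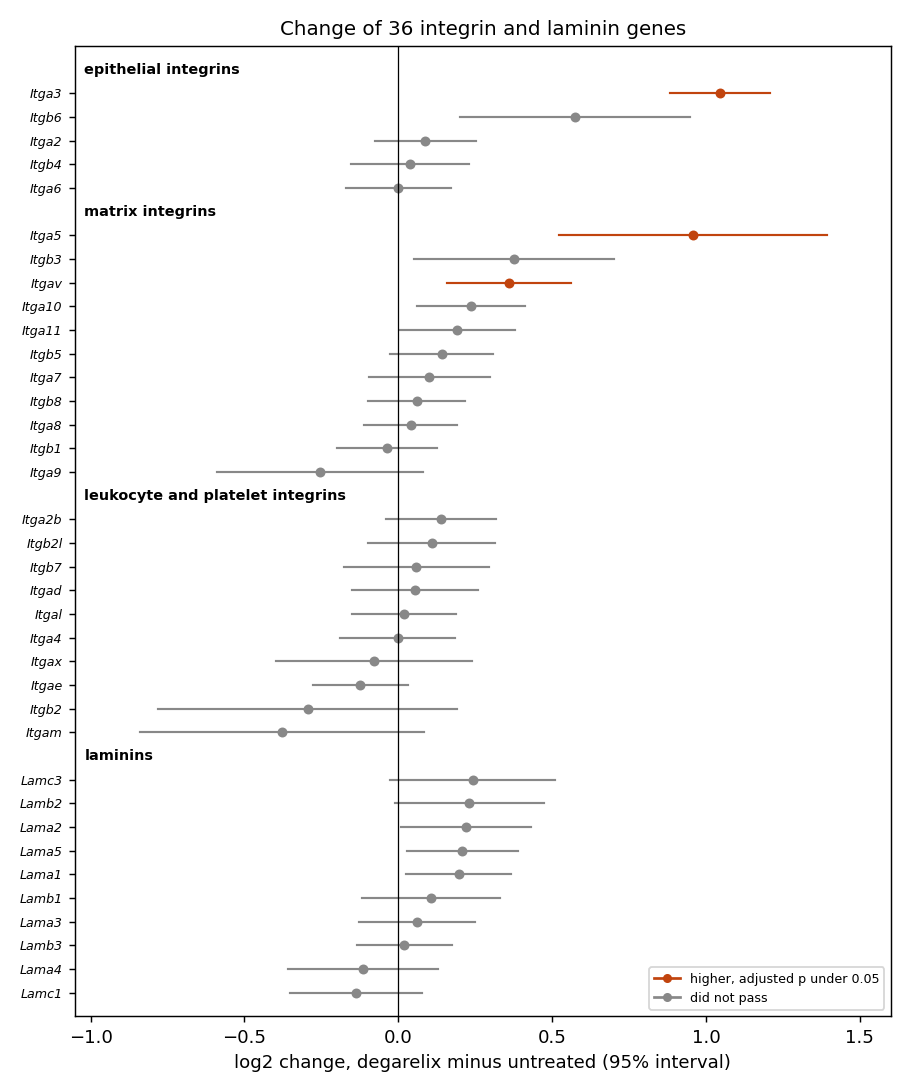
Change of each of the 36 integrin and laminin genes (x axis, degarelix minus untreated, log2; points are changes and bars 95% intervals from limma), grouped by class and sorted by change. Itga3, Itga5 and Itgav are the genes past the threshold; the widest intervals among leukocyte integrins are those of Itgb2 and Itgam.

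Itga3 encodes the alpha3 subunit, which pairs with beta1 as a laminin receptor of epithelia. It was at 10.38, 10.35 and 10.47 in degarelix replicates 1 to 3, against 9.28, 9.40 and 9.38 in untreated replicates 1 to 3. All degarelix tumors were above all untreated ones, and the tumors of each group lay close together (SD 0.06 in both). The change of 1.05 (SE 0.07, 95% interval 0.88 to 1.21) had a limma adjusted p of 1.04e-04 and ranked 65 by p among the 30140 genes.

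Itga5 encodes the alpha5 subunit of the fibronectin receptor. It was at 11.90, 11.79 and 11.85 in degarelix tumors, against 10.43, 10.89 and 11.34 in untreated tumors. The degarelix values were tight (SD 0.06), and the untreated values spread more widely (SD 0.46) without reaching them. The change was 0.96 (SE 0.19, 95% interval 0.52 to 1.39, limma adjusted p = 0.0152). The call ended without degarelix replicate 1 (adjusted p = 0.0673) and in a test against a 1.2-fold change (adjusted p = 0.0981), and the change was 0.73 without untreated replicate 1, where Itga5 was lowest (adjusted p = 0.00897).

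Itgav encodes the alphav subunit, shared by receptors with the beta1, beta3, beta5, beta6 and beta8 subunits. It was at 7.92, 7.89 and 8.02 in degarelix tumors, against 7.71, 7.42 and 7.62 in untreated tumors. The groups were separate, with a gap smaller than the range of the untreated values. The change was 0.36 (SE 0.09, 95% interval 0.16 to 0.56, limma adjusted p = 0.0336). The call was lost on leaving out any sample other than untreated replicate 1 (adjusted p = 0.07 to 0.109), when each array was centred on its median (adjusted p = 0.0889) and in the test against a 1.2-fold change.

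Because the 3 genes rose together, their start regions are shown, with that of Itgb1, the gene of the beta subunit that all 3 alpha chains can join, which was not called. They are RefSeq sequences of GRCm38.p6, 250 bases before to 50 after the start, at chr11:95076665-95076964 (minus strand) for Itga3, chr15:103366742-103367041 (minus strand) for Itga5, chr2:83724147-83724446 (plus strand) for Itgav and chr8:128685404-128685703 (plus strand) for Itgb1. Capitals mark exact matches on either strand to the GC box GGGCGG, the AP-1 motif TGANTCA and AGAACA, the hexamer of androgen receptor sites; no matches overlapped.
Itga3: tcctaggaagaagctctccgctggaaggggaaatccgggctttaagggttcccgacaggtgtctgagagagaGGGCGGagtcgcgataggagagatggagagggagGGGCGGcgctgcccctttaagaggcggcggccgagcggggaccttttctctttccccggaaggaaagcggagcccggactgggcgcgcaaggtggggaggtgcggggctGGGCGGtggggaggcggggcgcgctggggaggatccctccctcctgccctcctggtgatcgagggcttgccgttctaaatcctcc
Itga5: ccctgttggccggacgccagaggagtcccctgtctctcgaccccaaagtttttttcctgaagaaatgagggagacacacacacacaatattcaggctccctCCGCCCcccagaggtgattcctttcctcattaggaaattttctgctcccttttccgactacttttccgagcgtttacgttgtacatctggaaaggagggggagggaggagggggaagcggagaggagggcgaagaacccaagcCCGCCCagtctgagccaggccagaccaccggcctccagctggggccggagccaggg
Itgav: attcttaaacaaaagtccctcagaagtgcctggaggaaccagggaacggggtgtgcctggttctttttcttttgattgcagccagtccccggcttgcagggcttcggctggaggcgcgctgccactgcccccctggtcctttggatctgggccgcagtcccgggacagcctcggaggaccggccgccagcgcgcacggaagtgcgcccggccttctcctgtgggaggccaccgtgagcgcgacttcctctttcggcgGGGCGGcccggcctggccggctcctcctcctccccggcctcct
Itgb1: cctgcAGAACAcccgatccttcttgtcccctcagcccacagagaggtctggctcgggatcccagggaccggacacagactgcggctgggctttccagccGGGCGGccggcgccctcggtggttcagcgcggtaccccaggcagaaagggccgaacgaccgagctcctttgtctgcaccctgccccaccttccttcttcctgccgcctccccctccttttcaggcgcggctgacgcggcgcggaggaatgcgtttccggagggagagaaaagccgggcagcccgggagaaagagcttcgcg
The GC box was found 3 times for Itga3, 2 times for Itga5, and 1 time each for Itgav and Itgb1. The AP-1 motif was in none of the 4 windows, and the hexamer was in that of Itgb1 only. A window was found for 23 of the 36 genes, and 1 window per gene, nearest the gene's annotated 5′ end, was searched. Some of these windows lay wholly inside the gene. That of Itgav began at 83724147, where the gene's annotated 5′ end is 83722303, and those of Itga9, Itgb7 and Lamb3 were also wholly inside. Others lay partly inside. That of Lama2 ended at 27617192, where the annotated 5′ end is 27617191, and that of Itga3 spanned the annotated 5′ end at 95076844. The GC box was in 11 of the 23 (47.8%), against 35.7% of all 32851 windows in the RefSeq table, the AP-1 motif in 2 (8.7%, against 7.81%) and the hexamer in 5 (21.7%, against 19%). The windows of these genes were richer in G and C (median 59% against 52.7%), which was not corrected for. A match is a string of letters in this window and is no evidence of binding.

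Among the remaining epithelial integrins, Itgb6, whose beta6 subunit pairs with alphav and activates latent TGF-beta, had the largest change that did not pass. It was at 7.32, 7.37 and 7.68 in degarelix tumors, against 6.68, 7.27 and 6.70 in untreated tumors. The groups did not overlap, but untreated replicate 2 lay close to the degarelix values, and the untreated mean of 6.88 was within the background range. The change was 0.57 (SE 0.16, 95% interval 0.20 to 0.95, limma adjusted p = 0.0577). It passed without untreated replicate 2 (adjusted p = 0.0082), with quantile normalization (adjusted p = 0.0447) and with a filter on dim genes (adjusted p = 0.0372).

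The 2 subunits of the hemidesmosome integrin gave small differences. Itga6, whose product is the laminin-binding alpha6 subunit, was at 7.69, 7.60 and 7.75 in degarelix tumors, against 7.76, 7.61 and 7.66 in untreated tumors. The groups overlapped fully and the change was 0.00 (95% interval -0.17 to 0.17). Itgb4, which encodes the beta4 subunit, was at 6.70, 6.71 and 6.51, against 6.69, 6.60 and 6.51, all within the background range, with a change of 0.04 (95% interval -0.15 to 0.23). Itga2, the collagen-binding alpha2 subunit gene, also lay within the background range, with a change of 0.09 (95% interval -0.08 to 0.25).

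Itgb1 was at 9.56, 9.55 and 9.67 in degarelix tumors, against 9.66, 9.56 and 9.67 in untreated tumors. The groups overlapped. The change of -0.04 (SE 0.07, 95% interval -0.20 to 0.13) had a limma adjusted p of 0.763, and its sign turned under cyclic loess (0.08) and quantile normalization (0.02). To see whether the alpha subunit genes moved relative to this shared partner, log2 ratios were taken within each array, which removes any shift common to an array. Itga3 over Itgb1 averaged 0.81 ± 0.01 in degarelix and -0.28 ± 0.11 in untreated tumors (SD, n = 3 each), a difference of 1.08. The differences were 1.00 for Itga5 over Itgb1 and 0.40 for Itgav over Itgb1, and in all 3 ratios the groups did not overlap. Itga6 over Itgb1 averaged -1.91 ± 0.04 and -1.95 ± 0.06, with overlapping groups and a difference of 0.04. Between the epithelial alpha chains, Itga3 over Itga6 differed by 1.05, again without overlap. Since Itgb1 and Itga6 hardly changed, these differences largely restate the changes of Itga3, Itga5 and Itgav and are no separate evidence. Over these 5 ratios, chosen after the changes had been seen, the exact two-sided permutation p was 0.1 for each one without overlap, the smallest that 3 against 3 allows (0.125 adjusted over the 5), and 0.5 for Itga6 over Itgb1. The absolute height of such a ratio depends on the probes and has no meaning of its own; only its difference between groups is read.

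**Figure D2:**
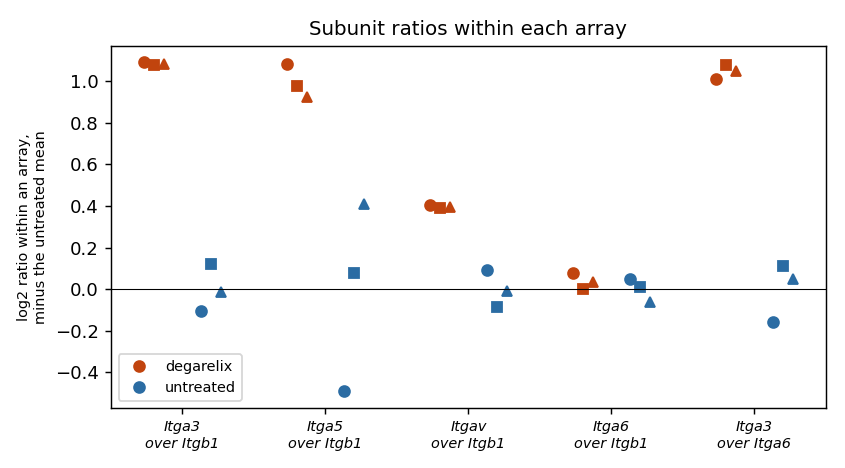
Log2 ratio of 2 integrin subunit genes within each array, minus the untreated mean of that ratio (y axis), for 5 ratios, with degarelix left of untreated; circles, squares and triangles are replicates 1, 2 and 3. Itga3, Itga5 and Itgav over Itgb1 and Itga3 over Itga6 separate the groups, and Itga6 over Itgb1 does not.

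The other beta partners of alphav did not pass. Itgb3, the beta3 subunit gene of the vitronectin receptor, was at 7.51, 7.36 and 7.28 in degarelix tumors, against 7.16, 6.66 and 7.21 in untreated tumors. The groups were separate, by less than the distance of untreated replicate 2 from the other untreated tumors, and the change was 0.38 (95% interval 0.05 to 0.70, limma adjusted p = 0.134). Itgb5 had a change of 0.14 (95% interval -0.03 to 0.31), and Itgb8 lay at 3.59 to 3.75 on all arrays, within the background range.

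The remaining matrix integrins pair with beta1. The collagen-binding subunit genes Itga10 and Itga11 had changes of 0.24 (95% interval 0.06 to 0.41, limma adjusted p = 0.0883) and 0.19 (95% interval 0.01 to 0.38, limma adjusted p = 0.179), without overlap and with both means within the background range. Itga9, which encodes a tenascin-binding subunit, was at 6.82, 6.78 and 6.97 in degarelix tumors, against 7.44, 7.08 and 6.80 in untreated tumors. It had the lowest change of the class, -0.25 (95% interval -0.59 to 0.08), with untreated replicate 1 highest and the degarelix mean of 6.85 within the background range. Itga7 and Itga8, a laminin-binding and an RGD-binding subunit, had changes of 0.10 and 0.04 within the background range.

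**Figure D3:**
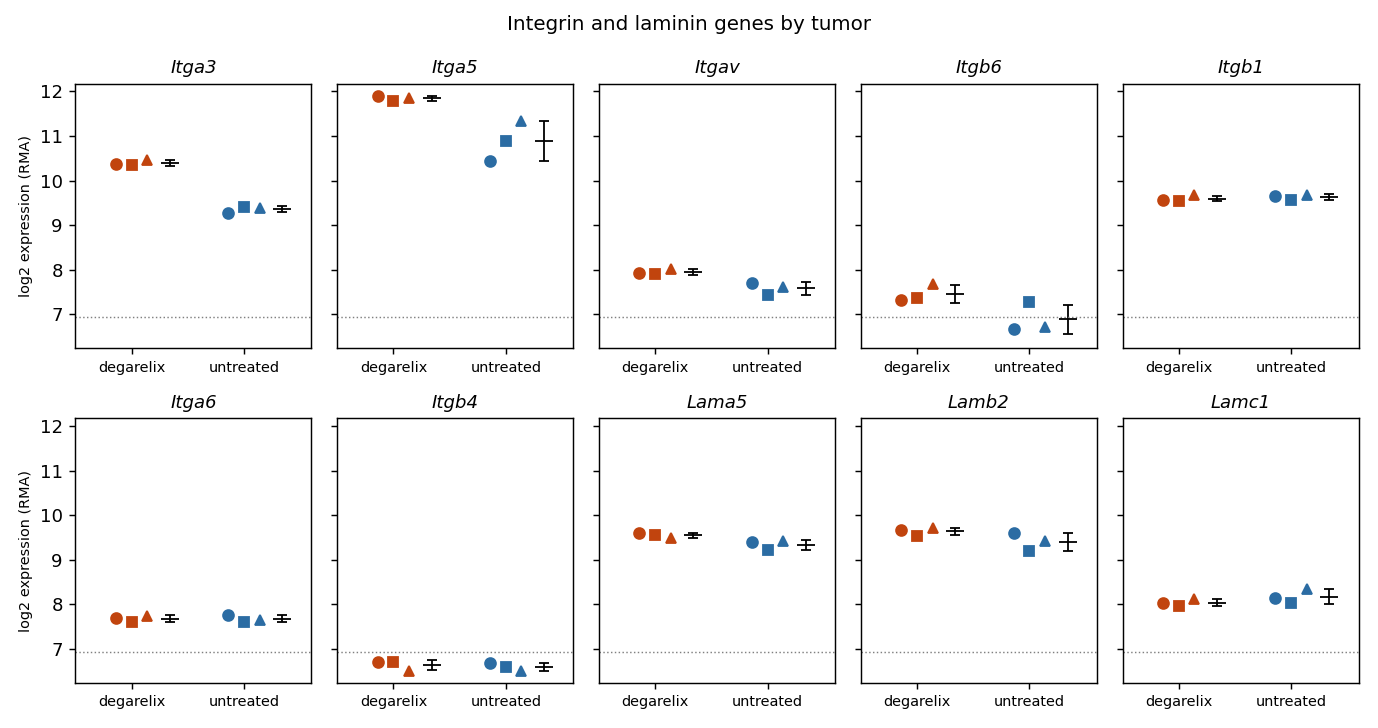
Log2 expression (y axis) of 10 integrin and laminin genes in each tumor, with degarelix left of untreated; circles, squares and triangles are replicates 1, 2 and 3, black bars are mean ± SD, and the dotted line is the brightest background value (6.93). Itga3, Itga5 and Itgav separate the groups, while Itgb1, Itga6, Itgb4, Lamb2 and Lamc1 overlap.

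All 10 leukocyte and platelet integrins had both group means within the background range, with values of 3.97 to 6.84. None was called in limma, and none had an unadjusted p under 0.05. Itgb7, which encodes a beta subunit of lymphocyte homing receptors, was at 6.74, 6.84 and 6.56 in degarelix tumors, against 6.83, 6.54 and 6.59 in untreated tumors, with overlap and a change of 0.06 (95% interval -0.18 to 0.29). Itgae, the alpha subunit gene that joins beta7 in receptors for E-cadherin, was at 5.34, 5.39 and 5.31, against 5.51, 5.48 and 5.41, without overlap and with a change of -0.12 (95% interval -0.28 to 0.03). The changes of all 10 lay between -0.38 and 0.14, 5 above 0 and 5 below.

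Itgam encodes CD11b, 1 of the antigens on which cells were sorted out, and Itgb2 its beta2 partner. Itgam was at 5.30, 5.27 and 5.23 in degarelix tumors, against 6.15, 5.18 and 5.60 in untreated tumors. Itgb2 was at 6.09, 6.03 and 5.91, against 6.84, 5.83 and 6.24. In both genes untreated replicate 1 was highest, untreated replicate 3 was next and the groups overlapped. The changes were -0.38 for Itgam (95% interval -0.84 to 0.09, limma adjusted p = 0.277) and -0.29 for Itgb2 (95% interval -0.78 to 0.19, limma adjusted p = 0.408), and -0.12 and -0.03 without untreated replicate 1. The dendritic and macrophage integrin gene Itgax, at -0.08, was also highest in untreated replicate 1.

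The myeloid genes Lyz2, Adgre1, Tyrobp, Csf1r, Cd68 and Fcer1g showed the same order of untreated tumors. The myeloid genes S100a8, S100a9 and Ly6g did not. Within the untreated group they were highest in replicate 3, with all values within the background range. Lyz2, which encodes lysozyme, was at 5.51, 5.98 and 6.27 in degarelix tumors, against 9.02, 6.26 and 7.65 in untreated tumors. Adgre1 was at 4.97, 5.02 and 4.91, against 6.05, 4.87 and 5.24. Tyrobp, an adaptor of myeloid receptors, was at 6.08, 6.06 and 6.21, against 8.39, 6.11 and 6.84. Of 14 leukocyte markers 9 were highest in untreated replicate 1, and the list's mean level was 5.35 to 5.44 in degarelix and 5.29 to 6.13 in untreated tumors. In the same tumors 6 of the 10 leukocyte and platelet integrins were highest in untreated replicate 1. Its array also had the brightest background value, 6.93, against 6.61 and 6.59 in untreated replicates 2 and 3. The share of all genes highest in any 1 array was not counted. Ly6g, a neutrophil marker at 4.96 ± 0.20 in degarelix and 4.58 ± 0.06 in untreated tumors, was the only called member of the marker list (higher by 0.38, limma adjusted p = 0.0474, both means within the background range). The part of other cells in these levels was not tested, and in bulk RNA fewer cells of a type and less RNA per cell cannot be told apart. Itga3, Itga5 and Itgav remained called with untreated replicate 1 left out. That fit still holds untreated replicate 3, at 7.65 for Lyz2 and 6.84 for Tyrobp, and is no test of the part of other cells.

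**Figure D4:**
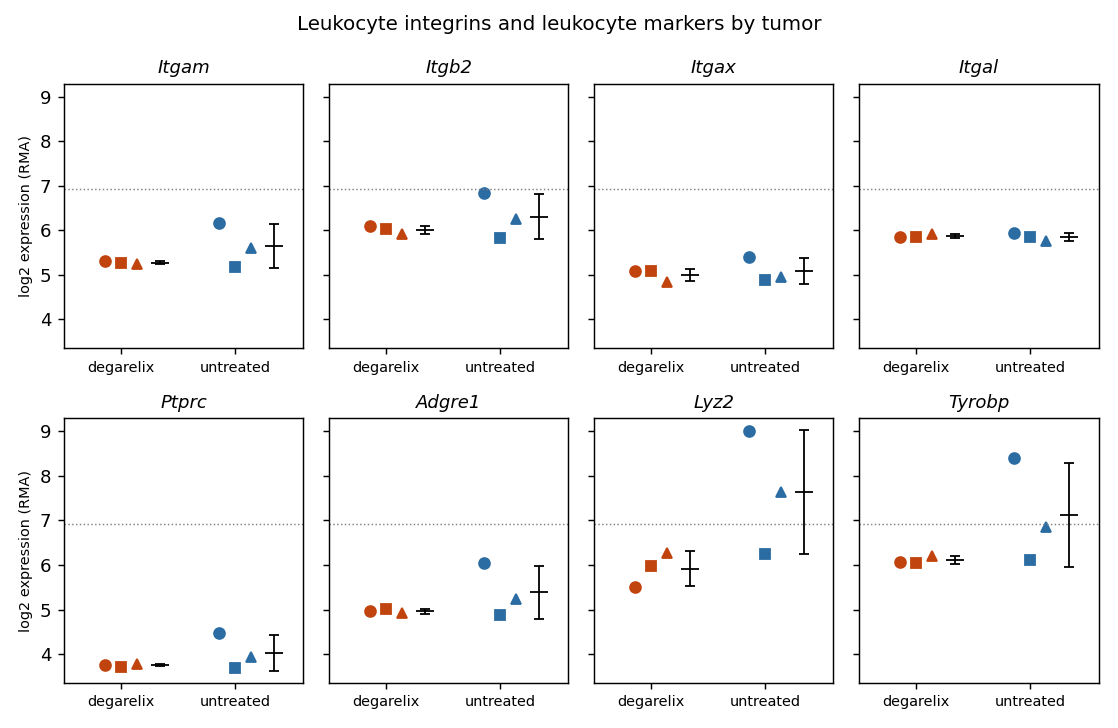
Log2 expression (y axis) of 4 leukocyte integrin genes (top) and 4 leukocyte markers (bottom) in each tumor, with degarelix left of untreated; circles, squares and triangles are replicates 1, 2 and 3, black bars are mean ± SD, and the dotted line is the brightest background value (6.93). In untreated replicate 1, Itgam reaches 6.15, Itgb2 6.84, Lyz2 9.02 and Tyrobp 8.39, the highest value of each gene.

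The laminin chains gave changes between -0.14 and 0.24, and none was called in limma (3 of 10, Lama1, Lama2 and Lama5, had an unadjusted p under 0.05, against 26.2% of all genes). The limits of their 95% intervals ran from -0.36 to 0.51; for the 5 chains within the background range an interval does not bound a fall in RNA. Among the alpha chains, Lama5, the main alpha chain of adult epithelial basement membranes, was at 9.61, 9.55 and 9.49 in degarelix tumors, against 9.40, 9.21 and 9.42 in untreated tumors. The groups were separate by less than the range within either group, and the change was 0.21 (SE 0.08, 95% interval 0.03 to 0.39, limma adjusted p = 0.137). Lama3, the alpha chain of the laminin that hemidesmosomes bind, was at 7.62, 7.59 and 7.76, against 7.49, 7.70 and 7.61, with overlap and a change of 0.06 (95% interval -0.13 to 0.25). The chains with both means within the background range were Lama1, Lama2, Lama4, Lamb1 and Lamb3, with changes of 0.20, 0.22, -0.11, 0.11 and 0.02. Lamb3 is the beta chain that joins Lama3.

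Among the beta and gamma chains, Lamb2 was at 9.66, 9.54 and 9.71 in degarelix tumors, against 9.60, 9.20 and 9.42 in untreated tumors. The groups overlapped through untreated replicate 1, and the change was 0.23 (SE 0.11, 95% interval -0.01 to 0.47, limma adjusted p = 0.213). Lamc1, the gamma chain of most laminin trimers, was at 8.02, 7.97 and 8.12, against 8.15, 8.02 and 8.35, and had the lowest change of the chains, -0.14 (95% interval -0.35 to 0.08). Lamc3 had the highest, 0.24 (95% interval -0.03 to 0.51). The groups of both gamma chains overlapped.

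Partner genes of integrins and laminins were described from 5 lists. Of 28 measured focal adhesion adaptors, the proteins that tie integrin tails to actin and kinases, 8 rose and 2 fell; their median change was 0.22, against 0.04 over all genes, of which 4.19% were called higher and 7.51% lower. Tns4, a tensin that binds beta subunit tails, was at 7.91, 7.99 and 7.70 in degarelix tumors, against 6.38, 6.78 and 7.03 in untreated tumors, a separation of groups with a change of 1.13 (SE 0.16, limma adjusted p = 0.00268). Its untreated mean of 6.73 lay within the background range, as did those of Tln2 and Src, so the sizes of these changes are uncertain. Vcl, which encodes vinculin, rose by 0.65 (SE 0.09, limma adjusted p = 0.00282), the kinase gene Ptk2b by 0.64 (SE 0.09, limma adjusted p = 0.00316) and the tensin gene Tns2 by 0.53 (SE 0.09, limma adjusted p = 0.00619). The other 4 that rose were Actn1, Tln2, Flna and Src, by 0.31 to 0.48. The kinase gene Ptk2 was not analysed here.

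The 2 genes of that list that fell were Itgb1bp1 and Itgb3bp. Itgb1bp1 encodes ICAP1, an inhibitor that competes with talin for the beta1 tail, and it changed by -0.51 (SE 0.13, limma adjusted p = 0.0344); with the mean of its clusters the change was -0.17 and did not pass. Itgb3bp encodes a centromere protein and changed by -0.38 (SE 0.10, limma adjusted p = 0.0467) within the background range. Each of these calls was lost on leaving out any of several single samples, with median centring and in the test against a 1.2-fold change, and that of Itgb3bp also under cyclic loess and quantile normalization. In alternatives chosen after seeing the data, the count of adaptors that rose was 15 with cyclic loess (5.14% of all genes higher) and 15 with quantile normalization (5.46%). It was 2 in a test against a 1.2-fold change (0.8%), 5 without degarelix replicate 1 (2.07%) and 5 without untreated replicate 2 (2.53%).

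Of 16 measured integrin ligands and related genes 5 rose and 2 fell (median change 0.16), where 4.19% of all genes were called higher and 7.51% lower. Vtn, which encodes vitronectin, the ligand of the alphav receptors, was at 9.43, 9.45 and 9.84 in degarelix tumors, against 7.16, 7.06 and 6.90 in untreated tumors, a change of 2.53 (SE 0.12, limma adjusted p = 3.44e-05). Icam1 and Vcam1, counter-receptors of beta2 and alpha4 integrins on leukocytes, rose by 1.19 (SE 0.13) and 0.69 (SE 0.09), and Mfge8, an alphav ligand, by 0.49 (SE 0.08). Itgbl1 encodes an integrin beta-like protein that is not a receptor subunit; it rose by 1.13 (SE 0.14, limma adjusted p = 0.00167) with both means within the background range. Fn1, which encodes fibronectin, the ligand of alpha5beta1, was at 12.37, 12.40 and 12.43 in degarelix tumors, against 12.45, 12.24 and 12.38 in untreated tumors, with overlapping groups and a change of 0.05 (95% interval -0.13 to 0.22).

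The 2 genes of the ligand list that fell encode growth factors of the TGF-beta family. Tgfb1 was at 8.83, 8.98 and 9.02 in degarelix tumors, against 9.28, 9.33 and 9.47 in untreated tumors, a change of -0.42 (SE 0.08, limma adjusted p = 0.0145). Tgfb2 changed by -0.54 (SE 0.10, limma adjusted p = 0.0113), whereas Tgfb3 had a change of 0.21 (limma adjusted p = 0.119). The call of Tgfb1 was lost without degarelix replicate 1 or untreated replicate 3 (adjusted p = 0.0596 and 0.0542), and that of Tgfb2 without degarelix replicate 1 or 2 (0.055 and 0.0504) and under cyclic loess (0.0508).

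**Figure D5:**
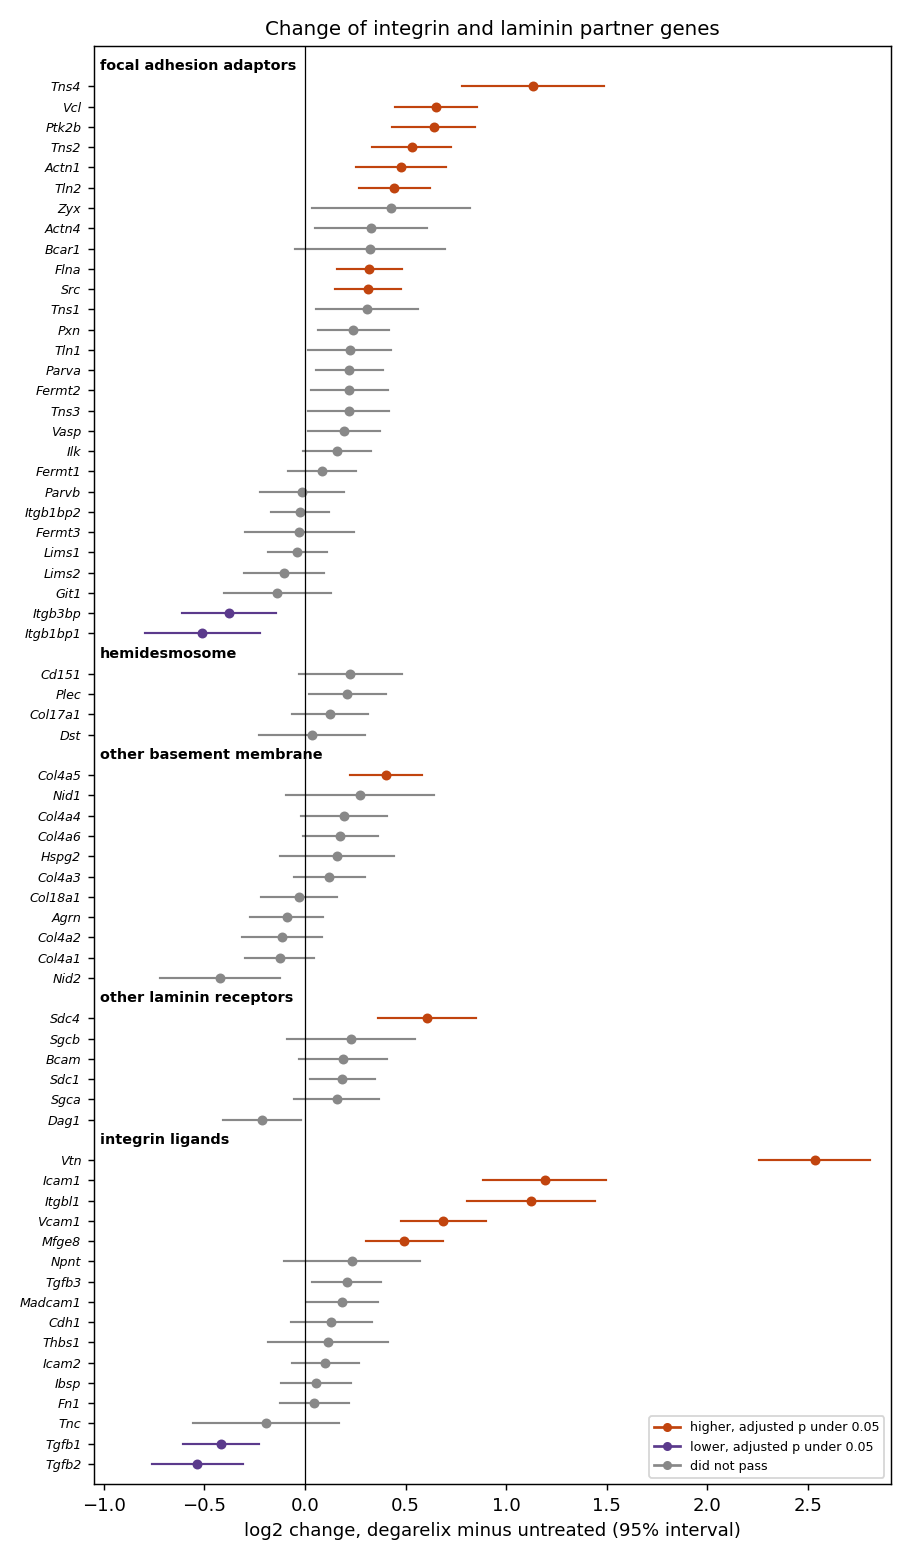
Change of 65 integrin and laminin partner genes (x axis, degarelix minus untreated, log2; points are changes and bars 95% intervals from limma), grouped by list and sorted by change. Vtn, at 2.53, lies furthest to the right, and Tgfb2, Itgb1bp1, Tgfb1 and Itgb3bp are the genes called lower.

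The last 3 lists, of basement membrane and laminin-binding genes, held 2 called genes, 1 of 11 and 1 of 6, where 11.7% of all genes were called in either direction. None of the 4 hemidesmosome genes Col17a1, Plec, Dst and Cd151 was called in limma (changes 0.04 to 0.23; 1 gene, Plec, with an unadjusted p under 0.05). Of 11 other basement membrane genes, Col4a5, a collagen IV chain gene, rose by 0.40 (SE 0.08, limma adjusted p = 0.0134) within the background range. Its call was lost without degarelix replicate 1 or 2 or untreated replicate 2 or 3 (adjusted p = 0.0528 to 0.0598) and in the test against a 1.2-fold change. The nidogen gene Nid2, whose protein links laminin to collagen IV, had a change of -0.42 (limma adjusted p = 0.0746), with both means within the background range. Of 6 other laminin receptors and related genes, Sdc4, a heparan sulfate proteoglycan gene of focal adhesions, rose. It was at 11.44, 11.48 and 11.49 in degarelix tumors, against 10.63, 10.89 and 11.07 in untreated tumors, a change of 0.61 (SE 0.11, limma adjusted p = 0.00872). The dystroglycan gene Dag1 had a change of -0.21 (limma adjusted p = 0.157).

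Stromal markers were set beside these values, since fibroblasts and vessels also carry integrins and make laminins. The fibroblast genes Dcn and Fbln1 were called higher, by 1.46 and 1.07. Postn had a change of -0.68 without overlap (limma adjusted p = 0.0517), and the other 5 fibroblast markers had changes of 0.15 to 1.19 that did not pass. In degarelix replicate 3, 7 of the 8 were highest. The mean level of that list was 7.77 to 8.50 in degarelix and 7.41 to 7.81 in untreated tumors. Without degarelix replicate 3 the changes were 1.01 for Itga3, 0.96 for Itga5 and 0.32 for Itgav (limma adjusted p = 0.00158, 0.0478 and 0.07). The mean of 6 endothelial markers was 5.78 to 5.81 in degarelix and 5.79 to 6.20 in untreated tumors, and all 6 were highest in untreated replicate 1. Among 8 mural markers the pericyte gene Rgs5 was called lower, by -0.73, with both means within the background range. The mean of the mural list was 6.91 to 7.09 in degarelix and 7.04 to 7.17 in untreated tumors. Among 5 platelet markers none was called in limma, 1, Gp9, had an unadjusted p under 0.05, and the list's mean was 5.62 to 5.83 and 5.62 to 5.78. The part of these cells in the integrin and laminin values was not tested. Of 5 basal epithelial markers, Krt15 and Krt14 were called higher, by 3.88 and 0.38, Krt14 with both means within the background range. Krt17 had a change of 0.39 without overlap (limma adjusted p = 0.0614), and Krt5 and Trp63 had changes of 0.11 and -0.07. Both means of Krt17, Krt5 and Trp63 also lay within the background range.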

How the data were processed

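RNA of sorted tumor cells from 3 degarelix-treated and 3 untreated tumors was measured on Affymetrix MTA 1.0 arrays. The deposited values are log2 expression, made by the authors with Affymetrix Expression Console and RMA per the submitters' processing notes (the sources used here give no versions or genome build). RMA brings arrays to a common distribution, so it is meant to remove shifts of a whole array, and changes of dim genes are understated. Array medians over genes still ranged from 5.57 to 5.69.

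Of 72688 rows, 6732 controls were left out. Of 65956 transcript clusters 30604 had 1 gene symbol, 2146 several and 33206 none. Symbols came from the platform annotation and were updated through Entrez identifiers (833 changed) with RefSeq of GRCm38.p6, whose positions were used only for the start regions.

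Groups were compared with limma 3.58.1 (R 4.3.3, lmFit and eBayes, two-sided, Benjamini-Hochberg over 30140 genes), tested on simulated data. Members and lists were chosen with earlier results of these data known. Named were called members, the brightest of each class, members with a change over 0.5, Itgb1, Itgb2, Itgam and Ptprc, and up to 4 called genes per partner list with those against its median; other genes were chosen after their values were seen. The labels call the samples biological replicates. Alternatives were other scalings, variance models, array weights, a dim filter (mean above the median gene), the mean of clusters, a 1.2-fold test, the replicate number as a block and leaving out each sample. Python 3.11.15, scipy 1.17.1 and matplotlib 3.10.9 were used for ratios and figures.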

Additional observations from a re-analysis of the deposited data

How the results depend on the processing

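The call of Itga3 held in limma under all 15 alternatives (changes 0.99 to 1.17, highest adjusted p = 0.00158), that of Itga5 under 13 and that of Itgav under 8. The number of integrin genes higher was 3; it was 6 with gene-by-gene array weights (adding Itga10, Itga2b and Itgb3, while 16.8% of all genes were then called higher, with degarelix replicate 2 given the highest weight, 3.42), and 1, Itga3, in the test against a 1.2-fold change. Leaving out each sample gave 1 to 3, with 1 without degarelix replicate 1. The number of laminin genes higher was 0 and became 2, Lama1 and Lama5, with gene-by-gene array weights. Integrin and laminin genes lower numbered 0 under all 15 alternatives. The cause of these differences was not tested. Samples of equal replicate number share only that number. The correlations of their deviations from the group means were 0.16, 0.04 and 0.20. Every sample correlated best with its own number, a weak hint from the data and not from the design. Degarelix replicate 2 did so barely, at 0.04 against 0.03 with untreated replicate 1. Deviations from a group mean are tied to each other, so these correlations are not independent and do not establish pairing. With the replicate block the counts were 3 integrin genes higher and 0 laminin genes higher. Signal over background limits Itgb4, Itga2, Itga7, Itga8, Itga10, Itga11, Itgb8, the leukocyte integrins, Lama1, Lama2, Lama4, Lamb1 and Lamb3, where a fall could hardly be seen.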
